A study of Sus scrofa with 18 samples.

Results

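NPPA and NPPB, the genes of atrial and B-type natriuretic peptide, and ANKRD1, a stretch-responsive gene of the cardiomyocyte, were followed in pig hearts, in right ventricular wall sampled before and after coronary arteries were tied. The genes were chosen by name, with earlier results of these data known. Every probe set that the probe-to-gene table assigns to exactly 1 of these symbols was taken, which gave 4 of 23935 tested probe sets and 3 of 6765 named genes. NPPA and NPPB have 1 probe set each and ANKRD1 has 2, and 0 probe sets of these genes are shared with another symbol.

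The study sampled the right ventricular free wall of 9 pigs, crosses of the breeds Hampshire, Yorkshire and Swedish Landrace, at baseline and again in failure, giving 18 Affymetrix 3' IVT arrays in pairs by animal. For pigs 6, 8, 9, 11, 12 and 13 the failure label states 120 min of ischemia, and these 6 animals are called label set 1. For pigs 5, 10 and 14 the labels define failure as a right atrial pressure above 20 mmHg and give a weight of 30 to 40 kg, and these 3 animals are called label set 2. The labels used here give no age or sex, and no array of an animal without ligation at the later time was used here.

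Natriuretic peptides are hormones that heart muscle cells release when their wall is stretched. They are cut from precursors by the proteases CORIN and FURIN and act through receptors that make cyclic GMP, which lowers blood pressure and increases salt excretion. The atria are the main site of NPPA expression in the adult heart, and both genes are used as markers of ventricular load. ANKRD1 encodes a protein that binds the elastic spring of titin and also enters the nucleus, and it belongs to the genes that respond to mechanical stretch.

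The label of ventricular tissue was set against marker genes. The 12 measured cardiomyocyte markers had a mean log2 intensity of 13.46 to 13.81 over the baseline arrays and 13.32 to 13.84 over the failure arrays, near the top of the scale, whose highest value was 15.2. MYL2, the regulatory light chain of ventricular muscle, was at 14.73 ± 0.08 at baseline and 14.69 ± 0.15 in failure (SD, n = 9). Array medians lay between 5.59 and 5.66. The levels come from whole tissue, so fewer cells of a type and less RNA per cell cannot be told apart.

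NPPA was higher in failure in 8 of 9 pigs, by 2.15-fold on average, and this difference did not pass the test over all probe sets. At baseline its log2 intensity ran from 5.77 in pig 12 through a median of 7.94 to 10.53 in pig 9. In failure it ran from 7.18 in pig 13 through a median of 9.58 to 9.95 in pig 5. The groups overlapped, because the pig with the highest baseline level lay above every failure sample and the lowest failure samples lay below the baseline median. At baseline its signal was near the middle of the array in pig 12 and among the bright ones in pig 9, at the 52.7th and the 96.8th percentile of probe sets, a rank of signal and not of RNA amount.

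The mean level of NPPA went from 7.91 ± 1.39 to 9.01 ± 0.98 (SD, n = 9), a log2 difference of 1.11 (SE 0.30, 95% interval 0.47 to 1.74, adjusted p = 0.432 in the paired limma fit over all probe sets). Its unadjusted p of 0.00228 in limma ranked 126th of 23935 probe sets, and an exact two-sided sign-flip test over the 9 pairs gave p = 0.0273 before any adjustment, where the smallest possible value is 0.00391. In the same fit 16 probe sets passed, which is 0.0668% of those tested (0.0209% higher and 0.046% lower), and none of the 4 member probe sets was among them. An unadjusted p under 0.05 was found for 6.14% of probe sets and, among the members, for NPPA alone. A mean log2 difference of at least 1 was found for 4 probe sets (0.0167%), NPPA included. A higher value in at least 8 of 9 pigs was found for 532 probe sets (2.22%).

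The size of the NPPA difference varied from pig to pig. Pig 12, with the lowest baseline, had the largest difference (2.69), followed by pig 14 (2.40). Pigs 5, 6 and 10 lay at 1.66, 1.64 and 1.14. Pigs 8 and 13 lay at 0.71 and 0.70, and pig 11 at 0.14. Pig 9 alone went the other way (-1.13), from 10.53 to 9.40. Without pig 9 the mean difference was 1.39 and all 8 remaining pigs were higher in failure, with an adjusted p of 0.0778 in limma. The levels were also closer together in failure, where the SD was 0.708 times that at baseline and 6 of the 9 pigs lay between 9.40 and 9.95.

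**Figure D1:**
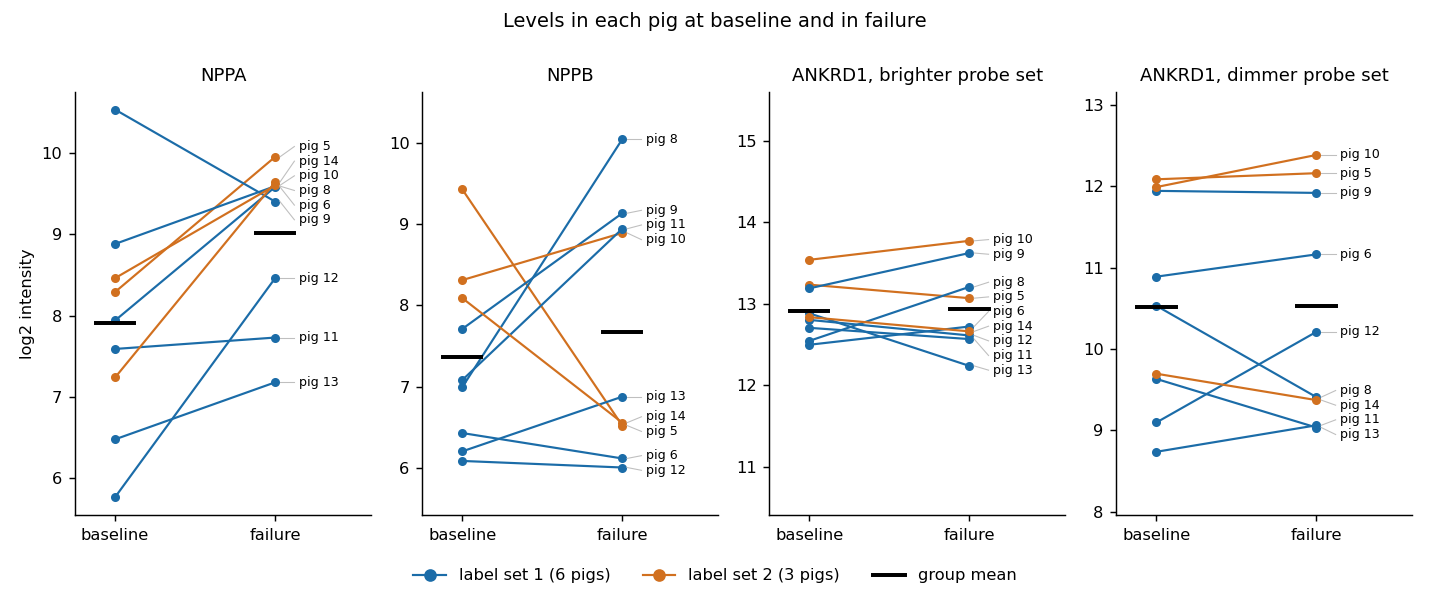
Log2 intensity (y axis) of the 4 member probe sets at baseline and in failure (x axis), 1 line per pig (blue, label set 1; orange, label set 2), with black bars for the group means of 9 pigs. All panels span the same range of log2 units; NPPA lines run upward in 8 of 9 pigs, NPPB lines cross, and the brighter ANKRD1 probe set stays between 12.24 and 13.77.

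NPPB differed strongly between animals and had no common direction. Its baseline level ran from 6.09 in pig 12 through a median of 7.08 to 9.43 in pig 5. In failure it ran from 6.01, again in pig 12, through a median of 6.88 to 10.04 in pig 8. The groups overlapped almost fully, and the median of failure lay below that of baseline although the mean lay above.

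Mean NPPB went from 7.37 ± 1.11 to 7.68 ± 1.55 (SD, n = 9), a log2 difference of 0.31 (SE 0.45, 95% interval -0.66 to 1.27, adjusted p = 0.955 in limma, exact sign-flip p = 0.605). It was higher in 5 pigs and lower in 4. The interval includes a 2-fold higher level as well as a lower one. Without pig 8 the mean difference was -0.04. The spread was the leading feature of this gene. The SD of its within-pig differences was 1.79, against a median of 0.216 over all tested probe sets, and was at the 99.99th percentile. A wide spread was shared by NPPA (1.17, 99.93th percentile) and the dimmer ANKRD1 probe set (0.64, 99.02th percentile). The brighter ANKRD1 probe set had 0.40 (93.3th percentile).

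Individual NPPB differences reached further than those of NPPA. In pig 8 the level went from 6.996 to 10.04, a difference of 3.05. Pig 11 followed with 1.86 and pig 9 with 1.42, so the animal whose NPPA was lower in failure was among the 3 with the largest NPPB gain. In pig 5 the level went from 9.43 to 6.53, a difference of -2.90, and pig 14 lay at -1.53. The other 4 pigs lay between -0.31 and 0.67.

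At baseline, NPPB levels of the label sets did not overlap. The 6 pigs of label set 1 lay between 6.09 and 7.71 (6.75 ± 0.62, SD) and the 3 pigs of label set 2 between 8.09 and 9.43 (8.61 ± 0.72). Such a separation at baseline was found for 1354 of all probe sets, which is 5.66%, and with label set 2 above for 2.8%. In failure the order of the means was turned, with 7.85 ± 1.73 in label set 1 and 7.33 ± 1.36 in label set 2, and the sets overlapped. The baseline samples carry the same state in both sets, and what else differed between the sets cannot be told apart here.

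The response of NPPB therefore differed in sign between the means of the label sets, 1.10 ± 1.27 in label set 1 (n = 6) against -1.28 ± 1.75 in label set 2 (n = 3). The difference in response was -2.39 (SE 0.74, limma interaction, unadjusted p = 0.0062, adjusted p = 0.867). With each pig left out in turn it ran from -3.32 without pig 10 to -1.58 without pig 5. Without pig 5 the unadjusted p of the limma interaction was 0.0582. The interaction passed in 0 of all probe sets after adjustment (0%) and had an unadjusted p under 0.05 in 1356 (5.67%). Both sets held animals that went against their mean, pigs 6 and 12 in label set 1 and pig 10 in label set 2.

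For NPPA the label sets were separated in failure and not at baseline. The 3 failure samples of label set 2 lay between 9.60 and 9.95 and the 6 of label set 1 between 7.18 and 9.59, so the gap between the sets was 0.01. A separation of any direction in failure was found for 3.84% of probe sets and one with label set 2 above for 1.86%. The NPPA difference was 0.79 ± 1.30 in label set 1 and 1.73 ± 0.63 in label set 2. The difference in response was 0.94 (SE 0.60, adjusted p = 0.919, limma interaction), within the spread between animals. In change, the label sets overlapped for all 4 member probe sets, and they did not for 2.3% of all probe sets.

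**Figure D2:**
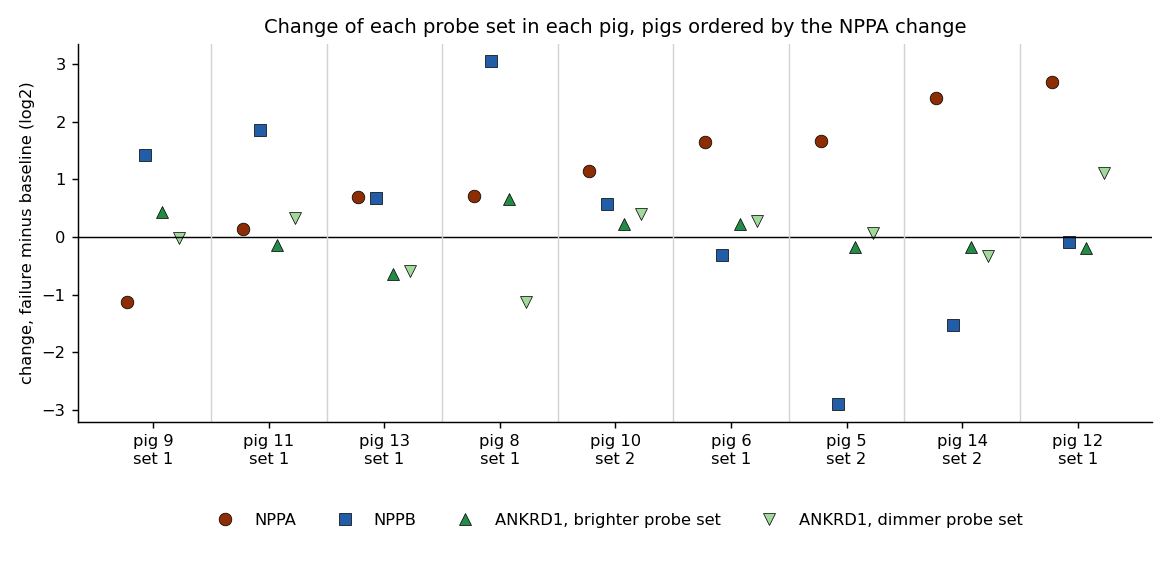
Log2 difference, failure minus baseline (y axis), of NPPA, NPPB and both ANKRD1 probe sets in each of the 9 pigs, ordered along the x axis by the NPPA difference. From left to right NPPA runs from -1.13 in pig 9 to 2.69 in pig 12, whereas NPPB has its largest value, 3.05, in pig 8 and its lowest, -2.90, in pig 5.

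ANKRD1 gave one of the brighter signals on every array, and its mean differed by less than the spread between animals. The brighter probe set, designed on the RefSeq transcript, ran from 12.50 through a median of 12.83 to 13.54 at baseline. In failure it ran from 12.24 through a median of 12.72 to 13.77. It stayed at or above the 99.1th percentile of its array in all 18 samples, and the groups overlapped.

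The mean of the brighter ANKRD1 probe set went from 12.91 ± 0.34 to 12.94 ± 0.51 (SD, n = 9), a log2 difference of 0.03 (SE 0.11, 95% interval -0.21 to 0.26, adjusted p = 0.989 in limma, exact sign-flip p = 0.855). It was higher in 4 pigs and lower in 5. Differences ran from -0.65 in pig 13 to 0.66 in pig 8. The interval of the mean holds no rise of the size seen in the mean of NPPA. The means of the label sets were close, 0.06 ± 0.48 in label set 1 and -0.04 ± 0.23 in label set 2 (difference in response -0.09, SE 0.24).

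The second, dimmer ANKRD1 probe set, designed on an expressed sequence tag, gave the same mean result with a wider spread between animals. Its level ran from 8.74 to 12.08 at baseline (10.51 ± 1.30) and from 9.03 to 12.38 in failure (10.52 ± 1.39). Its difference was 0.01 (SE 0.17, 95% interval -0.35 to 0.37, adjusted p = 0.997 in limma) and it was higher in 5 pigs and lower in 4. Its levels kept the order of the animals, with r = 0.888 between baseline and failure over 9 pigs (exact permutation p = 0.00408).

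The ANKRD1 probe sets were related in level, with r = 0.640 and rho = 0.55 at baseline and r = 0.749 and rho = 0.833 in failure over 9 pigs, and disagreed in change. Their within-pig differences had r = -0.213 and the same direction in 4 of 9 pigs. In pig 8 the brighter one gave 0.66 and the dimmer one -1.12, and in pig 12 they gave -0.19 and 1.11. The direction of ANKRD1 in single animals is therefore uncertain.

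The differences of the 3 genes were compared within pigs with exact two-sided sign-flip tests, adjusted by Benjamini-Hochberg over the 3 pairs. NPPA exceeded ANKRD1 by 1.08 (SD 1.37, higher in 8 of 9 pigs, exact p = 0.0508, adjusted 0.152). NPPA exceeded NPPB by 0.80 (SD 2.67, 6 of 9 pigs, exact p = 0.379, adjusted 0.568). NPPB exceeded ANKRD1 by 0.28 (SD 1.64, 6 of 9 pigs, exact p = 0.609, adjusted 0.609). None passed. Pig 9 was the only animal in which NPPA did not exceed ANKRD1. Without it NPPA exceeded ANKRD1 by 1.41 in 8 of 8 pigs and this pair passed (exact p = 0.00781, adjusted 0.0234). Leaving out that animal fixes the exact p at the smallest value possible for 8 pigs, so no conclusion is drawn from it. With any other pig left out the pair did not pass (adjusted 0.164 to 0.305, sign-flip test). The other pairs moved with single animals without passing. NPPA exceeded NPPB by 0.33 without pig 5, and NPPB exceeded ANKRD1 by 0.02 without pig 8 and by 0.66 without pig 5.

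NPPA and NPPB are neighbouring protein-coding genes in the pig assembly Sscrofa11.1, NPPA after CLCN6 and NPPB before KIAA2013, and form a cluster with shared regulatory elements in mammals. In these pigs they did not move together. Both were higher in failure in 4 pigs, NPPA was higher and NPPB lower in 4, NPPA was lower and NPPB higher in 1, and both were lower in 0. Over the 9 pigs their differences had Pearson r = -0.614 (exact permutation p = 0.0767, adjusted 0.230) and Spearman rho = -0.767 (exact p = 0.0214, adjusted 0.257). The adjustment covers 12 relations, which are the 3 pairs at baseline, in failure and in change and the 3 genes between baseline and failure.

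This inverse relation did not pass adjustment. It did not rest on the animals extreme in NPPA: without pigs 9 and 12, the farthest from the median in NPPA, r was -0.782 (exact p = 0.0377, adjusted 0.438). Pigs 5 and 8, extreme in NPPB, were not left out together, so their joint part was not tested. With each pig left out in turn r ran from -0.680 to -0.541. Within label set 1 it was -0.567 (exact p = 0.242, n = 6), and label set 2 holds too few animals for a value. The levels behind it were related differently. At baseline r was 0.472 over 9 pigs (exact p = 0.201, adjusted 0.301; rho = 0.533) and 0.913 within label set 1 (exact p = 0.0125, adjusted 0.15), where the higher NPPB level of label set 2 does not enter. In failure r was 0.0607 and rho -0.1.

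**Figure D3:**
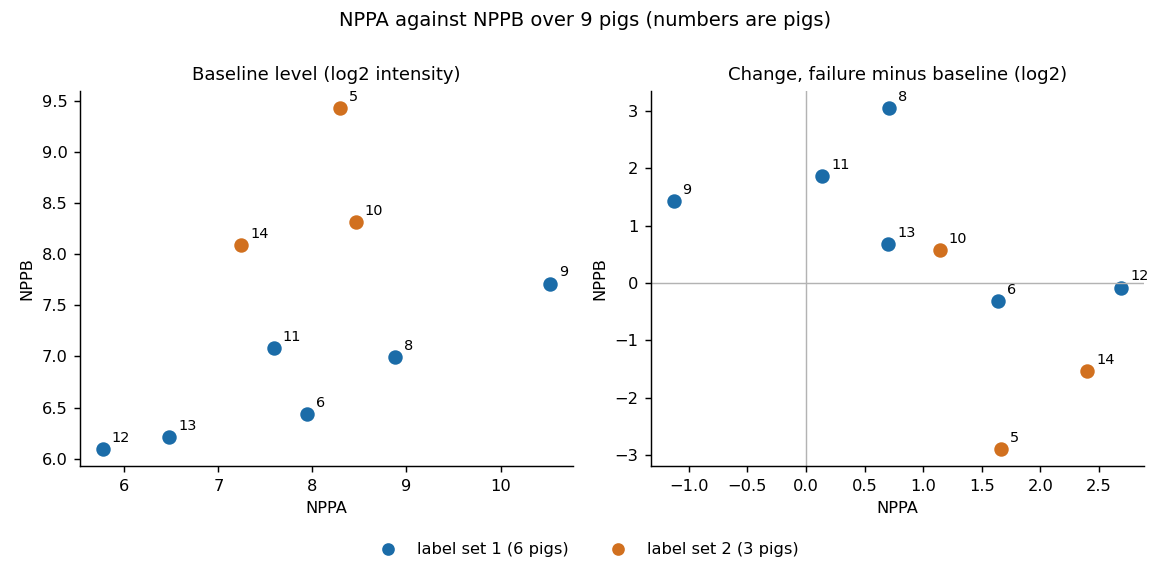
NPPB against NPPA in 9 pigs (blue, label set 1; orange, label set 2), with baseline log2 intensity in the left panel and the log2 difference, failure minus baseline, in the right panel. At baseline the 3 pigs of label set 2 lie above the 6 of label set 1 in NPPB; in change, the pigs with the largest NPPA difference lie low in NPPB (r = -0.614).

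ANKRD1, taken by its brighter probe set, was related to NPPB at baseline with r = 0.674 (exact p = 0.0463, adjusted 0.230; rho = 0.633), and 0.383 without pigs 5 and 10. With NPPA it had r = 0.319 at baseline (exact p = 0.404, adjusted 0.484; rho = 0.217). The dimmer probe set gave a higher baseline r with NPPA, 0.735 (exact p = 0.0204, adjusted 0.123), and the mean of both probe sets gave 0.691 (exact p = 0.0358, adjusted 0.123).

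In failure the brighter ANKRD1 probe set had r = 0.662 with NPPA (exact p = 0.0528, adjusted 0.230; rho = 0.617), and 0.323 without pigs 11 and 13. With NPPB it had r = 0.593 in failure (exact p = 0.0973; rho = 0.367), where the dimmer probe set gave -0.00474. In change it had r = -0.357 with NPPA and 0.477 with NPPB, and both signs turned with the dimmer probe set, to 0.327 and -0.321. The dimmer probe set gave values close to the brighter one with NPPB at baseline (0.653) and with NPPA in failure (0.634). The relations with NPPA at baseline, with NPPB in failure and with both peptides in change thus depended on the probe set.

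Levels in failure were also set against levels at baseline over the 9 pigs. NPPA had r = 0.555 (exact p = 0.129) and rho = 0.4. The brighter ANKRD1 probe set had r = 0.638 (exact p = 0.0648) and rho = 0.383, and NPPB had r = 0.126 (exact p = 0.745) and rho = 0.233. None of these passed adjustment. For ANKRD1 the mean of both probe sets gave r = 0.930 (exact permutation p = 0.00108, adjusted 0.0129), which passed. So did the dimmer probe set, added after the data were seen (0.888, adjusted 0.0490). The order of the genes, with ANKRD1 by its brighter probe set, turned within label set 1. There r was 0.824 for NPPB (exact p = 0.0681), 0.648 for NPPA and 0.349 for ANKRD1 (n = 6). Differences between these values were not tested.

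Peptide processing, receptor and signalling genes showed no called change. Of 21 listed genes 10 were measured, 5 higher and 5 lower in failure, and 0 passed, with a median log2 difference of 0.01 against -0.01 over all named genes, of which 46.4% were higher. NPR2, the receptor of C-type natriuretic peptide, was at 6.87 ± 0.28 and 6.89 ± 0.36 (difference 0.03, SE 0.11). The table used here names no probe set for the receptors NPR1 and NPR3 or the processing enzymes CORIN and FURIN. RGS2, a brake on G protein signalling that cyclic GMP-dependent kinase activates, had the largest difference of this list, 0.25 (SE 0.09, adjusted p = 0.695 in limma, higher in 6 of 9 pigs). NPPC, the gene of C-type natriuretic peptide, was at 4.41 ± 0.20 and 4.50 ± 0.16, below the array medians, and the cyclic GMP phosphodiesterase PDE5A had a difference of 0.08.

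Transcription factors that act on the natriuretic peptide and ANKRD1 promoters were likewise without a call. Of 24 listed factors 10 were measured, 4 higher and 6 lower, with a median difference of -0.04 and 0 passed. HEY2, a ventricular repressor, had -0.22 (SE 0.10, adjusted p = 0.753 in limma), and its other probe sets gave -0.04 and 0.03. GATA6, a zinc finger activator of cardiac genes, had 0.11 and the Hippo pathway factor TEAD1 had -0.09. GATA4, named here outside the rule because it is the classical activator of both peptide promoters, had 0.09 (SE 0.10).

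Partners of ANKRD1 at the titin spring kept their levels within the spread between animals. Of 16 listed genes 8 were measured, 5 higher and 3 lower, with a median difference of 0.02 and 0 passed. The largest difference was -0.13 for FHL2, a titin-binding LIM protein (SE 0.07, adjusted p = 0.837 in limma). FHL1, a LIM protein of the same complex, had 0.12 and the titin-associated ubiquitin ligase TRIM55 had 0.10.

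Stretch and wall stress genes were mostly higher in failure, and none passed the test. Of 22 listed genes 17 were measured, 15 higher and 2 lower (88.2% higher, against 46.4% of all named genes), with a median difference of 0.13 and 0 passed. The list was chosen with earlier results of these data known, and its genes were read in the same 9 pigs. The share is therefore a description and no test of the list. TNC, a matrix glycoprotein of injured heart muscle, had the largest difference, from 5.09 ± 0.45 to 5.59 ± 0.83 (0.50, SE 0.23, adjusted p = 0.801 in limma, higher in 6 of 9 pigs). The TNC differences of single pigs ran from -0.31 to 2.45, and its mean baseline level lay below the array medians. TIMP1, an inhibitor of matrix proteases, had 0.29 (SE 0.11, 7 of 9 pigs) and ACTA2, smooth muscle actin, had 0.26 (SE 0.11, 5 of 9 pigs). NPPA lay above all 17 in mean difference, and the brighter ANKRD1 probe set lay below the median of the list.

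**Figure D4:**
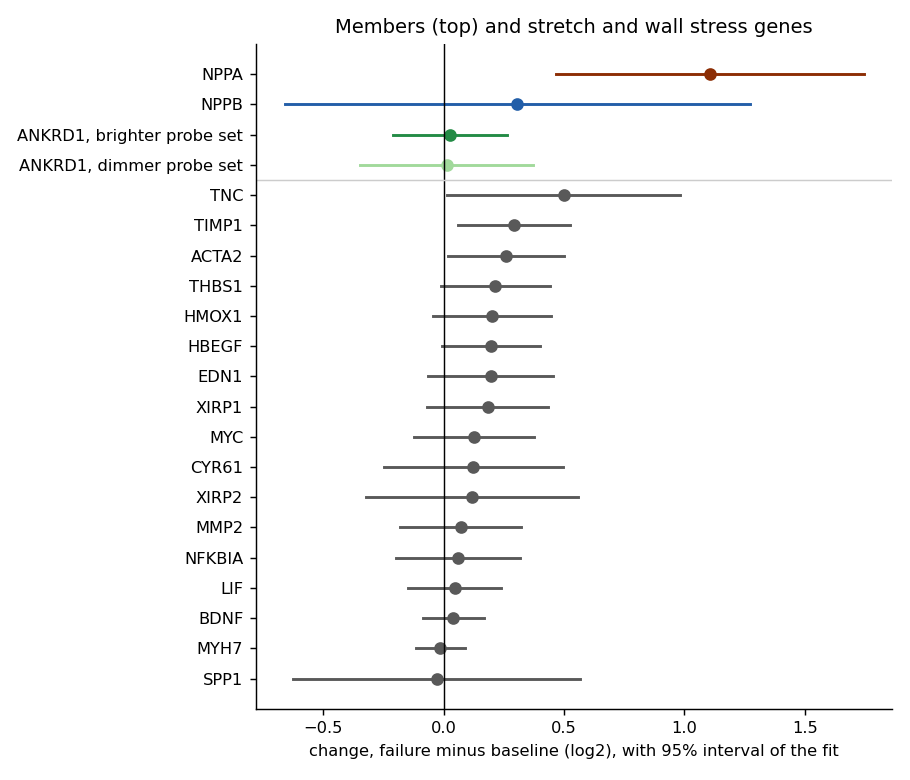
Mean log2 difference, failure minus baseline (x axis), with 95% intervals of the paired limma fit over 9 pigs, for the 4 member probe sets and the 17 measured stretch and wall stress genes (y axis). NPPA has the largest mean (1.11, interval 0.47 to 1.74); NPPB has the widest interval of the members, and both ANKRD1 intervals are centred close to 0.

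Markers of other cells were set beside the peptides, since NPPA is expressed mainly in the atria. Of 14 atrial markers 8 were measured, 6 higher and 2 lower in failure, with a median difference of 0.04 and 0 passed. Their mean level ran from 7.13 to 7.97 at baseline and from 7.02 to 7.85 in failure. Pig 9 had the highest mean at baseline, 7.97, against 7.63 in the next pig, and the lowest difference, -0.41. This mean is unscaled, and in pig 9 its difference came mainly from the markers MYL4 (-1.998) and CLU (-1.22). The markers SLN, PAM and GJA5 were higher in failure in that pig. The list mean had r = 0.667 with NPPA at baseline, 0.0575 in failure and 0.622 in change over 9 pigs, given as a description. Without pig 9 these values were 0.291, 0.0548 and 0.171, and within label set 1 they were 0.928, 0.694 and 0.901. The table used here names no probe set for the defining markers MYL7 and MYH6, and the conduction list had 0 measured genes.

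MYL4, the essential light chain of atrial muscle, followed NPPA from animal to animal and was singled out among the 8 after its values were seen. Its baseline level was 9.68 in pig 9, against 7.27 to 8.06 in the other 8 pigs. In failure it was 7.68 in pig 9 and from 7.02 to 8.82 over all pigs. So the animal with the highest NPPA at baseline, and the only one in which NPPA was lower in failure, had the highest MYL4 at baseline and the lowest MYL4 difference (-1.998).

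Over 9 pigs, the r between MYL4 and NPPA was 0.804 at baseline, 0.545 in failure and 0.856 in change (rho = 0.667, 0.383 and 0.733), given as a description with no test. Without pig 9 these values of r were 0.595, 0.574 and 0.682, and within label set 1 they were 0.900, 0.788 and 0.904. MYL4 had r = -0.308 with NPPB in change. On average MYL4 differed by 0.14 (SE 0.24). Among the other measured atrial markers, r with NPPA in change ran from -0.587 for PAM and -0.062 for SLN to 0.462 for CLU. GJA5 had 0.124, KCNJ3 0.281, NR2F1 0.282 and NR2F2 0.328. Of the 8 atrial markers, pig 9 had the highest baseline level in 3 (MYL4, KCNJ3 and PAM), the second highest in 3 (NR2F1, NR2F2 and GJA5), the third highest in 1 (SLN) and the sixth highest in 1 (CLU). In change, SLN (0.56), PAM (0.20) and GJA5 (0.12) were higher in pig 9. CLU (-1.22), NR2F1 (-0.37), NR2F2 (-0.31) and KCNJ3 (-0.26) were lower there, as MYL4 was. The part of atrial transcripts in the NPPA result was not tested.

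**Figure D5:**
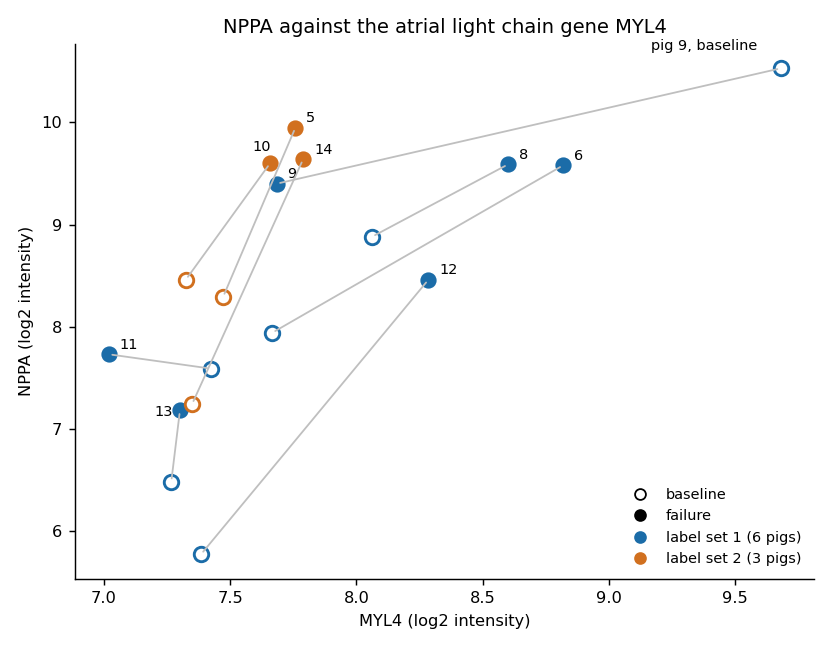
NPPA (y axis) against MYL4 (x axis), both as log2 intensity, with open circles for baseline, filled circles for failure (numbered by pig) and a line joining the samples of each of 9 pigs (blue, label set 1; orange, label set 2). The baseline sample of pig 9 lies apart at an MYL4 level of 9.68 and an NPPA level of 10.53; the 3 pigs of label set 2 run steeply upward with little difference in MYL4.

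Other marker lists also varied with the members from animal to animal, given again as descriptions. The 4 measured ventricular markers were all lower in failure, with a median of -0.05 and 0 passed. Of all named genes 46.4% were higher in failure. The mean of the ventricular markers had r = -0.898 with NPPB at baseline over 9 pigs and -0.881 within label set 1. This mean is unscaled and moved mainly with HEY2, whose SD at baseline was 0.64. MYL2 (SD 0.08), MYL3 (0.12) and MYH7 (0.02) varied little, so this r is mainly one with HEY2. The mean of the cardiomyocyte markers, which do not include HEY2, also had a negative r with NPPB at baseline. It was -0.773 over 9 pigs and -0.467 within label set 1. The mean of the 3 measured smooth muscle markers had r = 0.814 with NPPB at baseline, and with NPPA 0.611 at baseline and 0.860 in failure. With ANKRD1 it had 0.640 at baseline and 0.852 in failure. Smooth muscle markers ran from 8.08 to 9.42 at baseline and from 8.07 to 9.27 in failure, with 3 of 3 higher and a median of 0.14. In change, the r of the smooth muscle mean with NPPA was 0.197 and with NPPB 0.308.

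Red blood cell genes were the marker list with calls. Of 5 measured, 5 were lower in failure and 3 passed, with a median of -0.83. Over all named genes 7 of 6765 passed and 46.4% were higher. The genes that passed are described next. The 3 red blood cell genes were ALAS2, an enzyme of haem synthesis (-1.27, adjusted p = 0.00486 in limma), AHSP, a chaperone of alpha globin (-1.19, adjusted p = 0.0205), and HBM, a globin (-0.83, adjusted p = 0.0208), each lower in 9 of 9 pigs. The mean of the list ran from 6.60 to 7.88 at baseline and from 5.64 to 6.91 in failure. Its r with NPPA was 0.573 at baseline, 0.513 in failure and 0.229 in change, and with NPPB in change it was -0.507. The part of tissue composition in these results was not tested.

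RNA quality, read from how far the 3' probe set of GAPDH exceeded its 5' probe set in log2, also differed between animals. It went from 2.61 to 3.55 in pig 5 and from 0.98 to 2.17 in pig 13, while the other 7 baseline samples lay between 0.61 and 1.49. Its r over 9 pigs was 0.673 with NPPB at baseline, 0.288 with NPPA in change and -0.580 with the brighter ANKRD1 probe set in change. With this measure as a covariate beside the pig, the differences were 0.96 for NPPA (SE 0.33), 0.52 for NPPB and 0.12 for ANKRD1. The part of RNA quality in the relations over pigs was not tested.

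Genes whose within-pig differences were most like each member's were ranked by r over 9 pigs among 4923 named genes at or above the median level. These are the extremes of a long list, given without a test. For NPPA they were SLA-8 (0.919), VSTM4 (0.914), SREBF2 (0.897), PPP2R2A (0.882) and ZCCHC24 (0.880). Of these SREBF2, a regulator of cholesterol synthesis, alone was also alike in level, with r = 0.738 at baseline and 0.674 in failure, although its own differences stayed between -0.37 and 0.08.

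For NPPB the nearest were GABRA4 (0.953), SULF2 (0.942), DDX50 (0.919), FAM204A (0.917) and FAM49B (0.913). SULF2, a sulfatase that edits heparan sulfate outside cells, had differences from -0.59 to 0.74 and r = 0.761 with NPPB in failure, and 0.306 at baseline. GABRA4 had r = -0.577 with NPPB at baseline and 0.604 in failure, so the likeness in change did not carry over to the baseline levels.

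For ANKRD1, by its brighter probe set, they were SERPINB2 (0.951), AZIN1 (0.902), SSR4 (0.896), HOMER2 (0.895) and BCL2L1 (0.880). SERPINB2, an inhibitor of plasminogen activators, resembled ANKRD1 in all 3 respects, with r = 0.699 at baseline and 0.913 in failure. Its differences ran from -0.82 to 0.98 around a mean of 0.12 (SE 0.14, adjusted p = 0.947 in limma). AZIN1, which raises polyamine synthesis, had r = 0.558 at baseline and 0.831 in failure.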

How the data were processed

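Per the labels' protocols, Trizol and RNeasy columns were used to prepare total RNA, which was labelled with a 3' IVT kit. The authors deposited log2 intensities per probe set. The submitters' processing notes name Partek; how the arrays were corrected, normalized and summarized was not given in the sources used here. Scaling between arrays would hide a shift shared by most transcripts. NPPA was deposited with 2 decimals.

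Control probe sets (188) were left out. Failure was compared with baseline in limma 3.58.1 (R 4.3.3) with pig as a block, with Benjamini-Hochberg adjustment over 23935 probe sets (threshold 0.05, two-sided), and the response of the label sets as an interaction. The labels number the pigs; with group means subtracted, the paired samples had r from 0.449 to 0.750, and every baseline sample (9 of 9) was most like the failure sample from the same animal. A gene in a list was represented by its brightest probe set. Relations over pigs used exact permutations. The fit was tested on simulated data. Named genes were the members, the 3 largest differences of each list, the receptors and processing enzymes, and the 5 nearest genes per member. The measured ventricular markers, the atrial markers and the red blood cell genes that passed were named as markers. Members and lists were chosen with earlier results of these data known. Alternatives were other variance models, scalings and filters, the mean of probe sets, no block, an RNA quality covariate, the label sets alone and each pig left out.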

Additional observations from a re-analysis of the deposited data

How the results depend on the processing

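The number of probe sets called over the array was 16 as reported, 10 with trend and robust variance, 9 with the RNA quality covariate, 3 in label set 1 alone and 0 in label set 2 alone (1211 at an unadjusted p under 0.05 in limma). Without the replicate block that pairs samples by pig, 0 passed in limma (440 unadjusted), and NPPA had an unadjusted p of 0.0422. Leaving out each pig gave 2 to 26 calls. No member passed in limma under any alternative run. NPPA kept its direction in all of them, from 0.79 in label set 1 alone to 1.73 in label set 2 alone, and from 0.91 to 1.39 with pigs left out. NPPB was -1.28 and ANKRD1 -0.0357 in label set 2 alone; leaving out pigs gave -0.0367 to 0.71 for NPPB and -0.0531 to 0.11 for ANKRD1, and -0.23 to 0.0278 for the ANKRD1 response by label set. NPPA minus NPPB was -0.31 in label set 1 alone. With each pig left out in turn, NPPA minus ANKRD1 ran from 0.85 to 1.41. It passed only without pig 9, where the choice of pig fixes the exact p at its smallest value. With each pig left out in turn, the r of NPPA with NPPB in failure ran from -0.106 to 0.254 and that of NPPB between baseline and failure from -0.0593 to 0.463.

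Taking the mean of probe sets applies to ANKRD1 only, and its dimmer probe set alone was added after seeing the data. The r in change with NPPA became 0.101 with the mean and 0.327 with the dimmer one. With NPPB it became -0.0257 and -0.321, and in failure -0.00474 with the dimmer one. The ANKRD1 response by label set became 0.0537 with the dimmer one. The r of ANKRD1 between baseline and failure became 0.930 with the mean (exact p = 0.00108, adjusted 0.0129) and 0.888 with the dimmer one (adjusted 0.0490). The cause was not tested. Over all results, including those just given, 190 of 207 values with a pig left out were scored as unchanged. Under the other alternatives 96 of 112 were. For differences and r this means the same direction and side of the threshold. For numbers of called probe sets it means a number within a fixed ratio of the reported one. Under the scaling alternatives the median difference of all probe sets in failure was at most 0.00118 from 0.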
